A study of Homo sapiens with 8 samples.

Results

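The genes described here are the protein-coding neighbours of MET on chromosome 7q31, read in position order in spheres of 4 lung cancer lines. They were taken by position: every protein-coding gene of the deposited annotation whose start lies between 108 and 123 Mb of chromosome 7 (GRCh37). MET itself was left out, and the set was chosen with earlier results of these data known. The rule gave 44 genes of the 60106 in the files, 20298 of which are protein-coding. RNA was sequenced from pneumospheres, which are floating spheres grown without serum from established non-small cell lung cancer lines. EBC1 carries the label squamous cell carcinoma, and the other 3 lines, H820, H1975 and H23, the label adenocarcinoma. The 4 lines gave 2 libraries each, 1 untreated and 1 exposed for 15 min to 25 µg/ml of PD-L1s, a synthetic soluble PD-L1, the ligand of the immune checkpoint receptor PD-1. The question put to these genes was how far on each side of MET the RNA level was raised in EBC1 and in H820 against H1975 and H23.

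MET encodes the receptor tyrosine kinase for hepatocyte growth factor, which drives growth and motility of epithelial cells. In some lung cancers the gene is amplified, and an amplified segment usually carries neighbouring genes along with the driver. EBC1 and H820 are known in the field as lines with MET amplification. DNA was not measured here, so that extra gene copies and more RNA per copy cannot be told apart. The neighbours have unrelated tasks: CAV1 and CAV2 form the coat of caveolae, TES is a LIM-domain protein of focal adhesions, CAPZA2 caps actin filaments, CFTR is a chloride channel and WNT2 and WNT16 are secreted signalling ligands.

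The window mixes broadly expressed genes with tissue-restricted ones. The 250 bases before the start were taken from RefSeq (GRCh38.p14) for the 38 of the 44 genes with an entry. The dinucleotide CG, which reads the same on both strands, was counted in them. It was present in 92.1% of these 38 sequences, against 99.3% of 8170 protein-coding genes with a mean of at least 10 CPM (a count scaled to TMM-adjusted library size) and 93.8% of 6307 others. Neighbours of MET with a mean of at least 10 CPM over the 8 libraries had a median of 22.5 CG (n = 18), against 22 in all such genes. The remaining neighbours had a median of 10.5 (n = 20), against 8. The 4 sequences below are shown because the results turn on these genes. DOCK4 shares its upstream region with ZNF277. CAPZA2 and ST7 are the closest genes beyond MET, and the raised block of EBC1, though not that of H820, ended before WNT2. CG is in capitals.
DOCK4, GRCh38 chr7:112206400-112206649, minus strand: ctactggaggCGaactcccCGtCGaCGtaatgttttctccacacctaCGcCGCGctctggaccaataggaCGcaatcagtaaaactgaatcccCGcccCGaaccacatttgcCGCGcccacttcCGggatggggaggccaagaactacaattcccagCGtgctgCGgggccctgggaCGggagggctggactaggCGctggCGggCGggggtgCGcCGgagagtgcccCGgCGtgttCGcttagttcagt
CAPZA2, GRCh38 chr7:116862337-116862586, plus strand: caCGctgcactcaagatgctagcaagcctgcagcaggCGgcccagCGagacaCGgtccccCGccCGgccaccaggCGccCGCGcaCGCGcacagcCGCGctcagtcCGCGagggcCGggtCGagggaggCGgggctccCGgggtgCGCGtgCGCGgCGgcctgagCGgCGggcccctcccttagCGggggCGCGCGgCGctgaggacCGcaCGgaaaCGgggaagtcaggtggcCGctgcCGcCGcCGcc
ST7, GRCh38 chr7:116953251-116953500, plus strand: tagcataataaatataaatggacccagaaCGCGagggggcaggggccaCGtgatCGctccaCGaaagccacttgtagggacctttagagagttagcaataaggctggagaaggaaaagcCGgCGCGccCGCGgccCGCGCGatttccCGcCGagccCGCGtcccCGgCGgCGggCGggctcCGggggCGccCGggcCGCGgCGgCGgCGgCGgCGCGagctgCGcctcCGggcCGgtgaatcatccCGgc
WNT2, GRCh38 chr7:117323059-117323308, minus strand: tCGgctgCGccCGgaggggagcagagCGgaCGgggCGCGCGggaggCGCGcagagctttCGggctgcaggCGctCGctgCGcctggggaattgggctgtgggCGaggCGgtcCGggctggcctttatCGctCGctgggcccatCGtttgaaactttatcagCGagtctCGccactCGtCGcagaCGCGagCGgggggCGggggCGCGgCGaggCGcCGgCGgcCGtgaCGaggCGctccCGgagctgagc

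The 250 bases of CAPZA2 and WNT2 each held 38 CG, although CAPZA2 averaged 346 CPM and WNT2 1.03 CPM over the 8 libraries. ST7 had 36 CG and DOCK4 24. DOCK4 and ZNF277 are transcribed away from each other with 295 bases between their starts, so that 205 of the 250 bases are the same DNA read on opposite strands. THAP5 and DNAJB9 are a second such pair, with 167 bases between their starts.

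Total counts ran from 5559870 to 27524854 per library, and the shallowest libraries were untreated H820 and untreated EBC1. The 44 genes together took 0.5375% and 0.5109% of all counts in untreated and treated EBC1, 0.1438% and 0.1463% in H820, 0.1474% and 0.1437% in H1975, and 0.0756% and 0.0822% in H23. MET alone took 0.5994% and 0.6165% in EBC1 and at most 0.1544% elsewhere. MET stood at 6789 and 7607 CPM in the untreated and treated EBC1 libraries, 1177 and 1706 in H820, 477 and 514 in H1975, and 59.9 and 63.2 in H23. The order EBC1, H820, H1975, H23 held without overlap. In bulk RNA, fewer cells with a transcript and less of it per cell cannot be told apart. Of the 44 genes, 36 had enough counts to be tested and 21 had a mean of at least 10 CPM. Each line has only 2 libraries. A p-value therefore compares a difference with how far libraries of the same line lie apart, pooled over the 4 lines. The treatment difference shared by the lines is taken out, and the estimate of the spread also draws on other genes. Such a p-value says nothing of other tumours.

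In EBC1, 27 of the 36 tested neighbours were higher than the mean of H1975 and H23 and 0 were lower (edgeR quasi-likelihood test, adjusted p under 0.05). Over all 24185 genes tested, 27.7% were higher and 27.0% lower. With scaling by library size only, the split over all genes was 18.7% higher and 40.0% lower, and 26 neighbours were higher and 0 lower. The median log2 difference of the neighbours was 1.96, against -0.09 over all genes. In H820, 29 of 36 were higher and 3 were lower, against 29.1% and 24.7% of all genes. Their median was 1.44, against -0.01. In H820 the median was 0.92 in the 21 neighbours with a mean of at least 10 CPM and 2.83 in the 15 below it. In EBC1 these medians were 2.03 and 1.22. Higher against H1975 alone and also against H23 alone were 21 of 36 in EBC1 and 19 in H820, against 17.2% and 17.6% of protein-coding genes. In 6 of the 36 genes at least 1 line had 0 counts in both libraries, which makes a fitted difference depend on the model's prior. With those lines set to a floor of 3 counts per library the medians were 1.89 in EBC1 and 1.31 in H820. Both contrasts use the same H1975 and H23 libraries.

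A stricter criterion asked that both libraries of the line also lie above all 4 reference libraries. It was met by 23 of the 36 neighbours in EBC1, against 19.9% of all genes, and by 22 in H820, against 20.0%. Among the 21 neighbours with a mean of at least 10 CPM, 18 met it in EBC1 and 12 in H820, against 28.6% and 22.9% of all protein-coding genes at that level. Among the 15 below that level, 5 met it in EBC1 and 10 in H820, against 11.8% and 21.2%. Some of these weak genes had enough counts to be tested only through H820. PTPRZ1 and FEZF1 had at most 0.236 and 0.0448 CPM elsewhere. For such genes a higher level in H820 was nearly fixed by the filter. They therefore lend no support to the H820 counts, by this criterion or by the call alone. The plot of the differences by distance shows EBC1 raised on both sides of MET. DOCK4 and CPED1, both more than 1 Mb away, lay above the 5 genes beside it. ANKRD7 was also drawn above them, at a fitted 4.72 against 0 counts in H1975. With the floor of 3 counts it was 2.61, below all 5. In H820 the values spread from KCND2 at 7.68 down to CAV1, MDFIC and CPED1, which were called lower, and WNT2, which was not called.

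Per kb of exon, the 3 neighbours just before MET were the most abundant of the window in EBC1. CAV1 (chr7:116164839-116201238, plus strand), the structural protein of caveolae, had 1803 and 1931 CPM in the untreated and treated EBC1 libraries, 255 and 262 in H1975, 27.3 and 26.1 in H23, and 18.3 and 44.6 in H820. EBC1 lay far above every other library, and H820 lay at the level of H23. CAV1 was 22.4-fold higher in EBC1 than the mean of the reference lines (log2 4.48 ± 0.206 SE, adjusted p = 2.97e-12) and 2.67-fold lower in H820 (log2 -1.42 ± 0.230, adjusted p = 4.14e-05). The fall in H820 was against H1975: with H23 alone as the reference the log2 difference was 0.22.

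CAV2 (chr7:116139444-116148595), the partner that CAV1 carries to the membrane, had 833 and 865 CPM in the EBC1 libraries, 84.0 and 114 in H820, 154 and 140 in H1975, and 15.7 and 16.2 in H23. EBC1 was highest and H820 lay between the reference lines. The difference was log2 4.13 ± 0.147 in EBC1 (adjusted p = 1.21e-13) and 1.03 ± 0.148 in H820 (adjusted p = 1.02e-05), the latter -0.57 with H1975 alone as the reference. TES (chr7:115850547-115898837), which binds zyxin and actin regulators at focal adhesions, had 469 and 532 CPM in the EBC1 libraries, 189 and 212 in H820, 190 and 197 in H1975, and 15.8 and 16.9 in H23. H820 overlapped H1975, and the log2 difference was 3.15 ± 0.130 in EBC1 and 1.83 ± 0.130 in H820. Against H1975 alone the H820 value was 0.05 and was not called.

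Beyond MET, the next genes on the same strand are CAPZA2 and ST7. CAPZA2 (chr7:116502527-116562103), the alpha 2 subunit of the actin filament capping protein, had 904 and 911 CPM in the EBC1 libraries, 190 and 249 in H820, 180 and 169 in H1975, and 82.6 and 84.5 in H23. Both EBC1 libraries were more than 3 times any library of another line, and the lower H820 library was just above the higher H1975 library. The log2 difference was 2.91 ± 0.143 in EBC1 and 0.86 ± 0.145 in H820, and the latter was 0.33 and not called against H1975 alone. ST7 (chr7:116593292-116870157), named for suppression of tumorigenicity, had 114 and 110 CPM in the EBC1 libraries, 43.4 and 39.5 in H820, 20.8 and 18.5 in H1975, and 14.8 and 18.0 in H23. Here H820 stood apart from both reference lines, at log2 1.20 ± 0.133 (adjusted p = 4.39e-07), with EBC1 at 2.64 ± 0.128 (adjusted p = 5.89e-12).

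**Figure D1:**
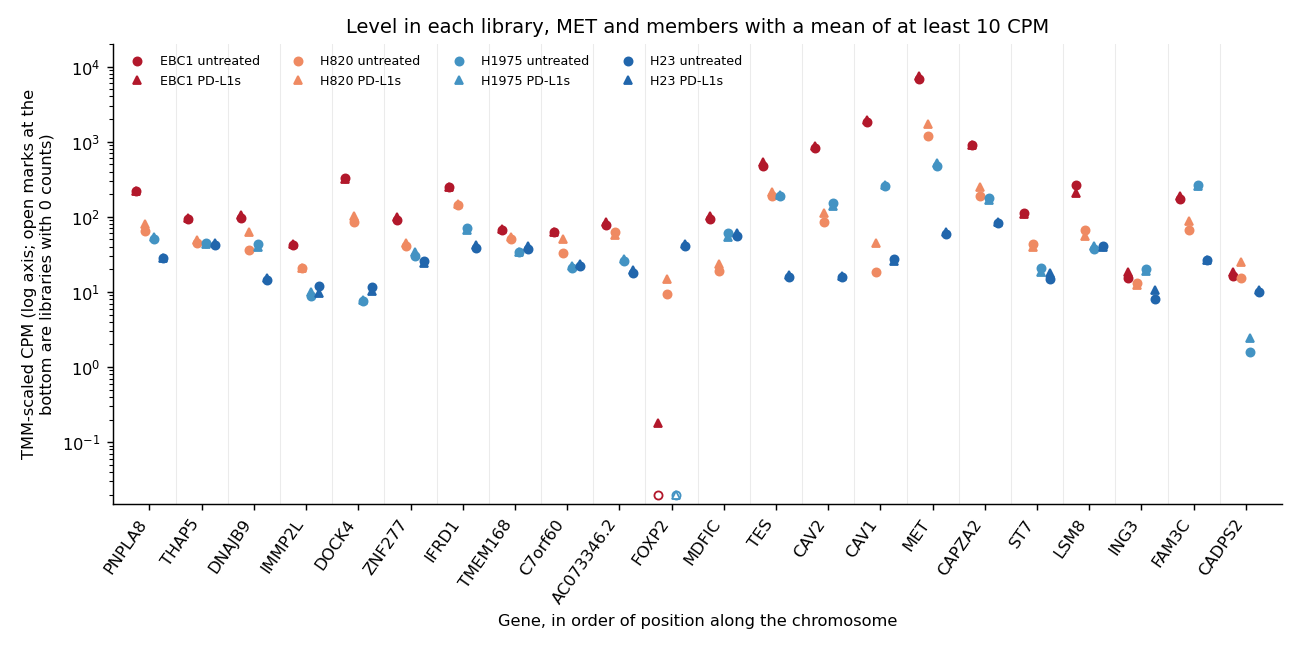
TMM-scaled CPM on a log axis (vertical) of MET and the 21 neighbours with a mean of at least 10 CPM, in position order (horizontal). Each mark is 1 library, circles untreated and triangles PD-L1s, coloured by line; EBC1 is the highest line in most columns, MET reaches 7607 CPM, and FOXP2 is at 0 in both H1975 libraries.

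Per kb of exon, CAV1 reached 508 CPM in EBC1, CAV2 205, TES 167, CAPZA2 160 and ST7 21.6, against 1076 for MET. In H820 the same genes stood at 8.56, 23.9, 66.7, 38.7 and 8.0 CPM per kb, against 215 for MET. CAV1 was thus the most abundant of the 5 in EBC1, and TES in H820. All 5 were higher in EBC1 than in H820, by log2 1.32 to 5.90 with a median of 2.05.

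On the side before MET, 12 neighbours further away than 1 Mb had a mean of at least 10 CPM. They had a median log2 difference of 1.82 in EBC1 and 0.96 in H820. Apart from DOCK4 and FOXP2 they lay between 0.77 and 2.51 in EBC1, below the 5 close genes. DOCK4 (chr7:111366534-111846466, minus strand), an activator of the small GTPase Rac, had 327 and 320 CPM in the EBC1 libraries, 85.2 and 101 in H820, 7.51 and 7.92 in H1975, and 11.5 and 10.4 in H23. Both lines lay well above both references, at log2 5.14 ± 0.136 in EBC1 (adjusted p = 5.17e-15) and 3.34 ± 0.133 in H820 (adjusted p = 3.03e-13). ZNF277, the zinc-finger gene that starts from the opposite strand of the same upstream region, had 92.0 and 99.8 CPM in the EBC1 libraries, 41.2 and 45.0 in H820, 29.7 and 34.2 in H1975, and 25.8 and 24.2 in H23. Its groups did not overlap either, but the log2 differences were 1.76 ± 0.122 and 0.61 ± 0.127. The difference between the 2 genes of the pair was not tested.

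PNPLA8, a mitochondrial phospholipase and the first gene of the window, had 218 and 220 CPM in the EBC1 libraries, 64.5 and 80.1 in H820, 50.4 and 53.6 in H1975, and 28.3 and 28.5 in H23. It was higher in both lines, by log2 2.51 ± 0.123 and 0.91 ± 0.127. THAP5 and DNAJB9, the other head-to-head pair, were both higher in EBC1, by 1.11 ± 0.118 and 2.03 ± 0.151. In H820, DNAJB9, a co-chaperone of the endoplasmic reticulum, was higher by 1.0 ± 0.157 with overlapping libraries, and THAP5 was not called (0.10 ± 0.123, adjusted p = 0.544). IMMP2L, a subunit of the inner mitochondrial membrane peptidase, was higher by 2.10 ± 0.140 in EBC1 and 1.06 ± 0.148 in H820. IFRD1, a transcriptional co-regulator, was higher by 2.24 ± 0.123 and 1.46 ± 0.124.

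Closer to MET, TMEM168, C7orf60 and AC073346.2 were each higher in both lines. TMEM168 differed least, with 66.3 and 68.0 CPM in the EBC1 libraries, 50.6 and 54.0 in H820, 34.4 and 33.8 in H1975 and 37.0 and 41.0 in H23, or log2 0.88 ± 0.121 and 0.52 ± 0.123. C7orf60, now called SAMTOR, a sensor of S-adenosylmethionine upstream of mTORC1, differed by 1.48 ± 0.138 and 0.92 ± 0.141. MDFIC, which holds the inhibitor domain of the MyoD family, is the nearest tested gene before TES. It had 93.4 and 104 CPM in the EBC1 libraries, 61.1 and 54.0 in H1975, 56.0 and 60.0 in H23, and 19.1 and 23.5 in H820. EBC1 lay above and H820 below all 4 reference libraries, by 0.77 ± 0.127 (adjusted p = 4.54e-05) and -1.42 ± 0.145 (adjusted p = 1.43e-07).

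FOXP2, a transcription factor of neural development, did not follow its surroundings. It had 40.3 and 43.5 CPM in H23, 9.31 and 14.8 in H820, 0 and 0.179 in EBC1, and 0 in both H1975 libraries. H23 was highest, and EBC1 was near 0 although the genes on both sides of FOXP2 were raised there. Its H820 difference was called higher against the mean of the references (adjusted p = 9.17e-08) but turned to -1.79 against H23 alone. LRRN3, a neuronal leucine-rich repeat protein, had 1.35 and 2.0 CPM in H820, 1.53 and 2.21 in H23 and 0 in EBC1 and H1975. GPR85, an orphan receptor, was under 2 CPM throughout.

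On the side after MET, raised and silent genes alternated. WNT2, the ligand next to ST7, had 4.10 and 3.87 CPM in H23, 0 and 0.269 in EBC1, and 0 in H820 and H1975. It was called by edgeR neither in EBC1 (adjusted p = 0.527) nor in H820 (adjusted p = 1.0). CFTR had 0.192 and 0.941 CPM in the EBC1 libraries, 1.86 and 2.79 in H820, 0 and 0.0943 in H1975, and 1.81 and 1.56 in H23. It was higher in H820 (log2 2.97 ± 0.535, adjusted p = 1.26e-04) and not called in EBC1 (1.22 ± 0.664, adjusted p = 0.130). The H820 call came from H1975: against H23 alone the log2 difference was 0.44 (adjusted p = 0.420).

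CTTNBP2, a cortactin-binding protein, had 5.38 and 6.10 CPM in the EBC1 libraries, 5.08 and 6.60 in H820, 2.81 and 3.87 in H23, and 0.0437 and 0 in H1975, above both references in both lines. LSM8, a core protein of the U6 spliceosomal particle, had 268 and 207 CPM in the EBC1 libraries, 66.2 and 54.7 in H820, 37.1 and 41.4 in H1975, and 41.2 and 39.9 in H23. It was higher by log2 2.56 ± 0.131 in EBC1 (adjusted p = 1.30e-11) and 0.59 ± 0.137 in H820 (adjusted p = 0.00140), and the reference lines were alike. ANKRD7 was above all references in EBC1, at 4.61 and 4.03 CPM, against 3.57 and 3.77 in H23 and 0 in H1975. Its call in EBC1 came from H1975, and against H23 alone the value was 0.20 (adjusted p = 0.615).

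Further on, 2 genes were prominent in 1 line each. KCND2, a voltage-gated potassium channel, had 12.9 and 19.3 CPM in H820 and at most 0.576 CPM elsewhere, and was higher in H820 by log2 7.68 ± 0.38 (adjusted p = 6.41e-12). CPED1, a protein with a cadherin-like domain, had 32.1 and 29.6 CPM in the EBC1 libraries, 1.73 and 1.96 in H23, 0.568 and 0.896 in H1975, and 0.339 and 0.186 in H820. It was higher in EBC1 by 4.72 ± 0.20 (adjusted p = 9.60e-13) and lower in H820 by -2.37 ± 0.489 (adjusted p = 4.69e-04). The H820 libraries hold few counts of CPED1, and without the treated one its difference was -1.74 and not called. TSPAN12, a tetraspanin of the Norrin receptor complex, had 12.5 and 12.3 CPM in H820, above 5.82 and 6.84 in H23 and 1.09 and 0.990 in H1975.

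ING3, a subunit of the NuA4 histone acetyltransferase complex, was the first well-expressed gene after MET that was called in neither line, at 15.2 and 18.2 CPM in EBC1 and 13.2 and 12.4 in H820, within the range of the references. FAM3C, a secreted cytokine-like protein, was highest in H1975, with 268 and 258 CPM, against 26.8 and 26.7 in H23, with EBC1 (171 and 188) and H820 (67.4 and 88.9) between them. Its call in EBC1 (log2 1.09 ± 0.133) came from H23, and the value against H1975 alone was -0.55. AASS, an enzyme of lysine breakdown, and CADPS2, a priming factor of dense-core vesicles, lay near the far end and were above all references in both lines. AASS was higher by 3.27 ± 0.274 and 2.41 ± 0.289, and CADPS2 by 1.90 ± 0.18 and 2.13 ± 0.175.

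The reach of the raised block was read outwards from MET over the tested neighbours. A gene passed when it was called higher with both libraries above all 4 reference libraries, and the block ended at the last passing gene before 2 failing genes in a row. In EBC1 the block held 20 genes, 16 of them passing, from PNPLA8 at the edge of the window to ST7, a span of 8.76 Mb. The 4 that failed inside it were LRRN3, LSMEM1, GPR85 and FOXP2. On the far side it stopped at WNT2 and CFTR. The block is therefore cut by the window on 1 side and by 2 nearly silent genes on the other. When it ended at the first failing gene it held 6 genes (MDFIC to ST7), and when 3 failures in a row were needed it held 34 (PNPLA8 to CADPS2). With a change of at least 2-fold also required, it shrank to 5 genes, TES to ST7.

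Over all tested protein-coding genes of chromosome 7, a rule added after seeing the data, the EBC1 block started at HBP1 (position 106809406) and held 29 genes over 10.06 Mb. Among genes with a mean of at least 10 CPM it ran from UPK3BL (position 102277472) to LSM8 and held 44 genes over 15.56 Mb, 39 of them passing.

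In H820 the block had no gene before MET, because CAV1 and CAV2 failed next to it. After MET it held 9 genes up to TSPAN12 over 4.19 Mb, 7 of them passing, with WNT2 and ANKRD7 failing. This reach rested on weakly expressed genes and on single libraries. It fell to 2 genes, CAPZA2 and ST7, with library-size scaling, and also without the untreated or without the treated EBC1 library. CFTR was still called higher in each of these 3 cases, but its lower H820 library no longer exceeded every reference library. Among genes with a mean of at least 10 CPM it held 3. Asking only for the call, without the libraries standing apart, gave 27 genes from PNPLA8 to TSPAN12, in which THAP5, MDFIC, CAV1 and WNT2 failed.

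The adjacent stretches of chromosome 7, each as long as the window, differed between the lines. In EBC1, 104 of 158 tested protein-coding genes in the stretch before the window were higher and 19 lower, with a median log2 difference of 0.85. In the stretch after it, 9 of 65 were higher and 32 lower, with a median of -0.44. The whole chromosome outside the window, these 2 stretches included, had a median of -0.02 (256 higher and 216 lower of 727). In H820, 54 of 158 genes before the window were higher and 33 lower (median 0.04), and 27 of 65 after it were higher and 10 lower (median 0.26). Of all protein-coding genes tested, 32.7% were higher and 29.9% lower in EBC1, and 33.0% were higher and 29.3% lower in H820. The bar plot of these shares shows more genes higher than lower in EBC1 before the window, and the opposite after it.

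**Figure D2:**
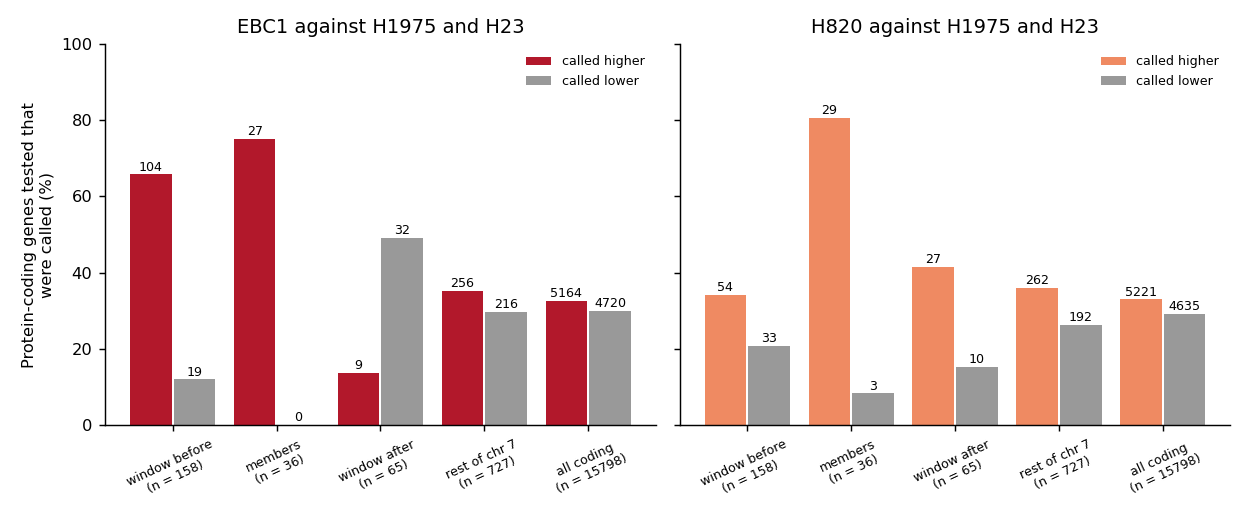
Percent of tested protein-coding genes called higher (coloured) or lower (grey) than the mean of H1975 and H23, in EBC1 (left) and H820 (right), for the stretch before the window, the 36 tested 7q31 genes, the stretch after it, the rest of chromosome 7 and all protein-coding genes. The rest of chromosome 7 includes both stretches. Numbers on the bars are counts of genes; in EBC1 the stretch before has 104 higher and the stretch after 9.

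A running median over 9 neighbouring protein-coding genes with a mean of at least 10 CPM, MET included, gave a similar profile. In EBC1 it was highest at TES, CAV2, CAV1, MET and CAPZA2, which tied at log2 2.91, and 6 of the 10453 such windows of the genome were higher, the top one around CXCL1 on chromosome 4 at 3.93. In H820 the highest value among the 7q31 genes was 1.42 at C7orf60, and 259 windows of the genome were higher. The reference lines also differed from each other where the window holds MET: H1975 minus H23 reached 3.01 at CAPZA2, with 22 windows of the genome higher. That 3.01 is the difference of MET itself, the middle value of the 9 genes. The running median without MET was not computed. Neighbouring windows share genes and are not independent.

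The contrast of H1975 with H23 shows how uneven the reference is. Of the 36 neighbours, 12 were higher and 12 lower in H1975, against 30.8% and 31.8% of all genes, and the median was -0.09. Among the neighbours higher in H1975, TES led at log2 3.56 ± 0.172, followed by FAM3C at 3.30 ± 0.172, CAV1 at 3.27 ± 0.260 and CAV2 at 3.21 ± 0.189, with MET itself at 3.01 ± 0.223. In the other direction FOXP2, WNT2, ANKRD7 and LRRN3 were detected in H23 and had 0 counts in both H1975 libraries, and CTTNBP2 and CFTR were nearly so. CAPZA2 differed by 1.06 ± 0.173 and ST7 by 0.26 ± 0.158 (adjusted p = 0.155). So H23 was the line with little RNA of TES, CAV2 and MET, while CAV1 was low in both H23 and H820. Against H1975 alone H820 was not higher at TES, CAV2 or CAV1.

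EBC1 and H820 were also compared directly, without the reference lines. EBC1 was higher in 22 of the 36 neighbours and lower in 8, against 25.6% and 30.1% of all genes. The median was log2 0.82, against -0.06 over all genes. CPED1 differed most among genes detected in every line, by 7.09 ± 0.366 (adjusted p = 1.90e-11), followed by CAV1 at 5.90 ± 0.295 (adjusted p = 1.29e-11). CAPZA2 differed by 2.05 ± 0.177, LSM8 by 1.97 ± 0.164, DOCK4 by 1.80 ± 0.154 and MET by 2.33 ± 0.216. H820 had the higher level of KCND2, by log2 -4.94 ± 0.410 for EBC1 minus H820, and of TSPAN12, by -1.16 ± 0.240.

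Not every gene of the window was detected. FLJ00325, PPP1R3A, TAS2R16 and SLC13A1 had at most 2 counts in every library. PPP1R3A is a glycogen-targeting subunit of muscle phosphatase, TAS2R16 a bitter taste receptor and SLC13A1 a sulfate transporter of kidney and gut. TSRM, TFEC, ASZ1 and WNT16 were also below the filter. Among the low but tested genes, PTPRZ1 had 1.19 and 2.04 CPM in H820 and at most 0.236 elsewhere, and FEZF1 had 0.508 and 2.0 in H820 and at most 0.0448 elsewhere. RNF133 and RNF148, ubiquitin ligases known from testis, were under 1 CPM in every library.

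Genes of other types in the window numbered 115, and 20 were tested. In EBC1, 15 were higher and 1 lower, against 18.3% higher among all 8387 tested genes of such types. In H820, 7 were higher and 2 lower, against 21.6% higher. ST7-OT4, a transcript within ST7 on the same strand, had 70.1 and 55.9 CPM in the EBC1 libraries, 21.2 and 11.9 in H820, 8.08 and 8.63 in H1975, and 7.23 and 9.91 in H23, with EBC1 highest and H820 next, as in ST7. AC002066.1, an antisense transcript that runs from inside TES to just past the CAV2 start, had 11.9 and 9.50 CPM in EBC1 and at most 3.30 elsewhere. AC006159.3, a long noncoding RNA between CAV1 and MET, had 8.45 and 5.74 CPM in EBC1 and at most 0.131 elsewhere. Reads were counted by strand, so antisense transcripts were kept apart from the coding genes.

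Protein partners and paralogs of the neighbours that lie elsewhere in the genome were counted in the same fit, in which 27.7% of all genes were higher and 27.0% lower in EBC1, and 29.1% and 24.7% in H820. Of 6 tested caveola genes, 2 were higher and 3 lower in EBC1 (median -0.67), and 1 was higher and 2 lower in H820. PTRF, also called cavin-1, which builds the caveolar coat together with CAV1, had 81.7 and 94.7 CPM in the EBC1 libraries, 7.45 and 17.3 in H820, 278 and 291 in H1975, and 113 and 95.0 in H23. It was lower in both lines, by log2 -0.98 and -3.74. Of 5 tested genes of actin capping, all 5 were higher in EBC1 with a median of 0.70, and in H820 2 were higher and 1 lower. CAPZA1, the paralog of CAPZA2, was higher in EBC1 by 0.87, and CAPZB, the beta subunit, by 0.70.

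Of 8 genes of focal adhesions and zyxin partners, 3 were higher and 3 lower in EBC1 (median 0.16), and likewise 3 and 3 in H820 (median -0.02). PXN, the adaptor paxillin, was higher in EBC1 by log2 1.66 and VCL, vinculin, by 1.27, while TLN1, talin, was lower by -1.12. Of 18 tested genes listed as paralogs, 8 were higher and 2 lower in EBC1 (median 0.29), and 6 were higher and 3 lower in H820 (median 0.28). WAS, 1 of the 2 lower in EBC1 (log2 -3.21), is the paralog of WASL, which starts beyond the end of the window, and not of a neighbour. ST7L, the paralog of ST7, differed by 0.27 in EBC1 and was not called (adjusted p = 0.183). These medians stand beside 1.96 for the neighbours themselves in EBC1.

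The treatment left the neighbours without a call. Of the 36 tested, 0 were higher and 0 lower after PD-L1s by edgeR, where 0.0289% of all genes were higher and 0.00827% lower. DESeq2 and limma-voom also called 0. At an unadjusted p under 0.05 there was 1, CADPS2 (log2 0.36 ± 0.149, adjusted p = 1.0), against 873 of all genes. FEZF1 (log2 1.86 ± 0.905) and FOXP2 (0.34 ± 0.192) followed. Within single lines, where there is no replicate check, 2 genes exceeded 2-fold, both in H820: AASS had 26 counts untreated and 306 treated (log2 1.63 after scaling), and CAV1 108 and 960 (1.27). Untreated H820 was also the shallowest library, and the part of depth in these values was not tested.

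Cell type markers moved with the lines as well. The summed level of 5 epithelial genes (EPCAM, CDH1, KRT8, KRT18 and KRT19) ran from 3369 to 4090 CPM in EBC1, 1658 to 2666 in H820, 3401 to 3551 in H1975 and 143 to 145 in H23. H23, the line low in TES, CAV2 and MET, was thus also low in these. CDH1, which encodes E-cadherin, had at most 2.01 CPM in H23. Of the squamous markers, TP63 had 0.192 and 0.314 CPM in EBC1, the line labelled squamous, while H1975 had 87.2 and 86.7. KRT5 reached at most 0.0472 CPM in any library and so did not separate the lines. KRT6A and DSG3 stayed at or below 0.0448 CPM in EBC1, and their highest values, 5.61 and 1.08, came from treated H1975. For SOX2 the EBC1 libraries (6.53 and 5.78 CPM) lay above H1975 (4.98 and 4.06). They lay below H23 (10.1 and 10.3) and H820 (15.6 and 13.2). The SOX2 difference of EBC1 from the references was not called (log2 -0.14, adjusted p = 0.570). Of the adenocarcinoma markers, SFTPC and SFTPB were at 0 or near it in every line, and NKX2-1 had 5.46 to 78.4 CPM in the 3 adenocarcinoma lines and at most 0.224 in EBC1. NAPSA did not follow NKX2-1, with 1.92 and 2.24 CPM in EBC1 and 1.01 to 4.23 in the other lines (log2 0.05, adjusted p = 0.945). Endothelial markers summed to at most 11.4 CPM in any library, and fibroblast markers, mostly COL1A1, to at most 57.8. Immune markers ran up to 152 CPM through CD68, with CD3E and PTPRC at most 0.402. The part of these differences in the results at MET was not tested.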

How the data were processed

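The authors deposited gene-level counts, that is whole read pairs per gene without any scaling. The submitters' processing notes name STAR 2.7.3a, featureCounts (Subread 2.0.0) and the build GRCh37 (hg19). The file headers show that exons were counted strand by strand and that a pair overlapping several genes of 1 strand was given to each. ZNF277, FOXP2, FLJ00325 and TSRM share such exons with noncoding genes. Per the labels' protocols, the libraries were total RNA depleted of ribosomal RNA, so unspliced and noncoding RNA is included.

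The expression filter of edgeR (minimum count of 10, line as the group) left 24185 genes. Differences were tested with edgeR 4.0.16 (R 4.3.3, TMM scaling, quasi-likelihood F test, two-sided) in 1 fit of all 8 libraries with cell line and treatment as terms. Untreated and treated libraries of a line are paired by the labels. The contrasts were EBC1 and H820 against the mean of H1975 and H23 on the log scale, EBC1 against H820, H1975 against H23, and PD-L1s against untreated. Adjustment was by Benjamini-Hochberg across these 24185 genes, with calls under 0.05. SE is the log2 difference divided by the root of the F statistic. Nothing in the labels says that the libraries of a line came from separate cultures. The method was tested on simulated data.

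Levels are TMM-scaled CPM. Ratios within a line were taken for genes reaching 50 counts, after adding a prior count of 5. DESeq2 1.42.0 and limma 3.58.1 (voom) were alternatives, as were other scalings, filters, single reference lines and leaving out each library. The genes named were the 5 neighbours at MET, those in or next to a line's block, the next 5 by p and those undetected, with up to 4 per partner list. The noncoding genes, TSRM, TFEC, ASZ1 and WNT16 were named after their values were seen. The members and lists were chosen with earlier results of these data known. Coordinates are GRCh37 as in the files, except the RefSeq sequences (GRCh38.p14), matched by symbol or synonym.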

Additional observations from a re-analysis of the deposited data

Results flagged for a closer look

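In 3 of the 36 tested neighbours of MET, EBC1 and H820 were called in opposite directions against the same H1975 and H23 libraries, and the difference between EBC1 and H820 was itself called. CAV1 differed by log2 5.90 ± 0.295 (EBC1 minus H820, adjusted p = 1.29e-11), with 1803 and 1931 CPM in the EBC1 libraries and 18.3 and 44.6 in those of H820. CPED1 differed by 7.09 ± 0.366 (adjusted p = 1.90e-11), and its H820 libraries had 0.339 and 0.186 CPM. MDFIC differed by 2.20 ± 0.162 (adjusted p = 2.27e-09), with H820 below all 4 reference libraries at 19.1 and 23.5 CPM. CAV1 and MDFIC lie before MET and CPED1 after it. The share of all genes with such a pattern was not counted, so the 3 cannot be set against it. The H820 value of CAV1 was 0.22 and not called against H23 alone, and that of CPED1 was -1.74 without the treated H820 library.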

How the results depend on the processing

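The counts of neighbours called higher varied little. Leaving out each library in turn gave 24 to 28 higher and 0 lower in EBC1, 25 to 28 higher and 2 to 3 lower in H820, and 19 to 22 higher and 5 to 8 lower for EBC1 against H820, the 5 without the treated EBC1 library. The reach was 20 in EBC1 throughout and 2 to 9 in H820. Where leaving out a library left 1 in a line, that library was assumed to vary like the others. PD-L1s gave 0 calls in every setting, also without the line as a term (no replicate block, 0 higher and 0 lower).

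Counts that moved by over 1.5 times were few. Neighbours lower in EBC1 were 2 with limma-voom, 1 against H1975 alone and 4 against H23 alone. Those lower in H820 were 6 and 5 against H1975 and H23 alone. Those higher in H820 were 16 of the 21 with a mean of at least 10 CPM, a smaller set. That is 76.2%, against 80.6% of the 36 and 34.1% of protein-coding genes at that level. Those lower in EBC1 than H820 were 4 with a minimum count of 50. The EBC1 reach was 6 when it ended at the first failing gene, 34 when 3 failures ended it, 5 with a 2-fold change required and 44 over genes of chromosome 7 with at least 10 CPM. The H820 reach was 2, 27 (call only), 5 (2-fold), 5 (H23 alone), 2 (library size only), 2 (without either EBC1 library) and 3 (at least 10 CPM). The cause was not tested.

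Scaling by library size only moved the median of all genes to -0.46 in EBC1 (main value -0.09) and to -0.18 in H820 (main value -0.01). It turned WNT2 (-0.08) and ING3 (-0.05) in EBC1 and THAP5 (-0.07) in H820, none of them called. Single reference lines turned FOXP2 (4.34, H1975), FAM3C (-0.55, H1975), ING3 (-0.20, H1975), TSPAN12 (-0.20, H23), CFTR (-1.30, H23) and WNT2 (-4.21, H23) in EBC1. In H820 they turned CAV2 (-0.57, H1975), and against H23 CAV1 (0.22), LRRN3 (-0.15), FOXP2 (-1.79), ANKRD7 (-1.70), ING3 (0.46) and FAM3C (1.55). WNT2 in EBC1 was -0.59 with DESeq2, -0.60 with limma-voom and -4.62 to 0.87 when each library was left out, CFTR -0.50 to 2.57. In H820 the same omissions gave -0.19 to 0.05 for ING3 and -0.32 to 0.08 for FAM3C. Of the values for single genes, 1328 kept direction and side of the threshold, 23 lost the call, 13 gained it and 24 turned.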
